A study of Rattus norvegicus with 16 samples.

Results

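The mitochondrial genome carries 37 of the 32883 genes counted in this study of the rat nucleus basalis of Meynert, and these 37 are described here by gene class. They are all the genes that the annotation places on the sequence MT. The class was taken from position and length: the 2 genes at MT 68 to 1025 and MT 1094 to 2664 are the ribosomal RNA (rRNA) genes, the 13 other genes of 200 bases or more form the protein coding class, and the 22 genes under 200 bases form the transfer RNA (tRNA) class. The choice used no counts. Coordinates are on the rat build Rnor_6.0, 1-based, and the files give Ensembl identifiers without gene names, so genes are called by their MT position.

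The nucleus basalis lies in the basal forebrain and supplies the cortex with acetylcholine, and the study title places it in a question on stress and sustained attention. Total RNA was sequenced in 16 libraries, 4 in each of 4 groups: stressed females, control females, stressed males and control males. All were brain tissue of Long Evans rats at least 70 days old, and the genotype given for every group, controls included, is ChAT::Cre, in which Cre recombinase is driven in cells that express choline acetyltransferase. Libraries carry the number in their title here, which is 1 to 4 for stressed females, 6, 7, 8 and 10 for control females, 11 to 14 for stressed males and 16, 17, 18 and 20 for control males. For stressed females the count files carry other numbers than the titles, which changes no group. The labels do not tie the libraries to separate animals, and the p-values below reflect spread between libraries, which may be technical.

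Mitochondria keep a small circular genome of their own. In mammals it encodes 2 rRNAs of the mitochondrial ribosome, a set of tRNAs, and subunits of the respiratory chain complexes and of ATP synthase. Both strands are transcribed as long precursors from which the RNAs are cut, mostly at the tRNAs that lie between the other genes, so one precursor can carry RNAs that later differ widely in abundance. Mitochondrial RNA is abundant in neurons, which rely heavily on respiration.

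Counting differed among libraries, and this bears on every class. Male stress 11, male control 20 and female control 10 were counted with featureCounts, each mate of a read pair on its own, and the other 13 libraries have the layout of HTSeq output. The 3 featureCounts libraries had totals of 63.1 to 73.8 M counts (M, 1000000), and the HTSeq totals were 22.7 to 38.2 M. All 4 libraries of stressed females are HTSeq libraries. No library was counted with both tools, so the tool cannot be told apart from other differences between these libraries. In the HTSeq files 10.9% to 17.5% of entries were reads aligned to more than 1 place, which were given to no gene, and how many of these came from mitochondrial genes was not tested. On the mitochondrial genome 13 of the 37 genes share 1 to 44 bases with other mitochondrial genes. Counts from the shared bases are uncertain, and the effect on each gene was not measured.

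Mitochondrial genes took most of the counts in every library. Of all gene counts they held 69.6%, 74.7%, 77.9% and 75.6% in female stress 1 to 4, and 80.3%, 73.8%, 76.3% and 64.2% in female control 6, 7, 8 and 10. In males they held 82.5%, 77.8%, 76.5% and 76.0% in stress 11 to 14, and 75.8%, 74.6%, 70.8% and 78.3% in control 16, 17, 18 and 20. The lowest share, in female control 10, and the highest, in male stress 11, both belong to featureCounts libraries, and stressed and control ranges overlapped in both sexes. Counting error was small beside this spread, with a 95% Wilson interval of at most 0.0181 points to either side. In bulk tissue fewer cells of a type and less RNA per cell cannot be told apart.

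**Figure D1:**
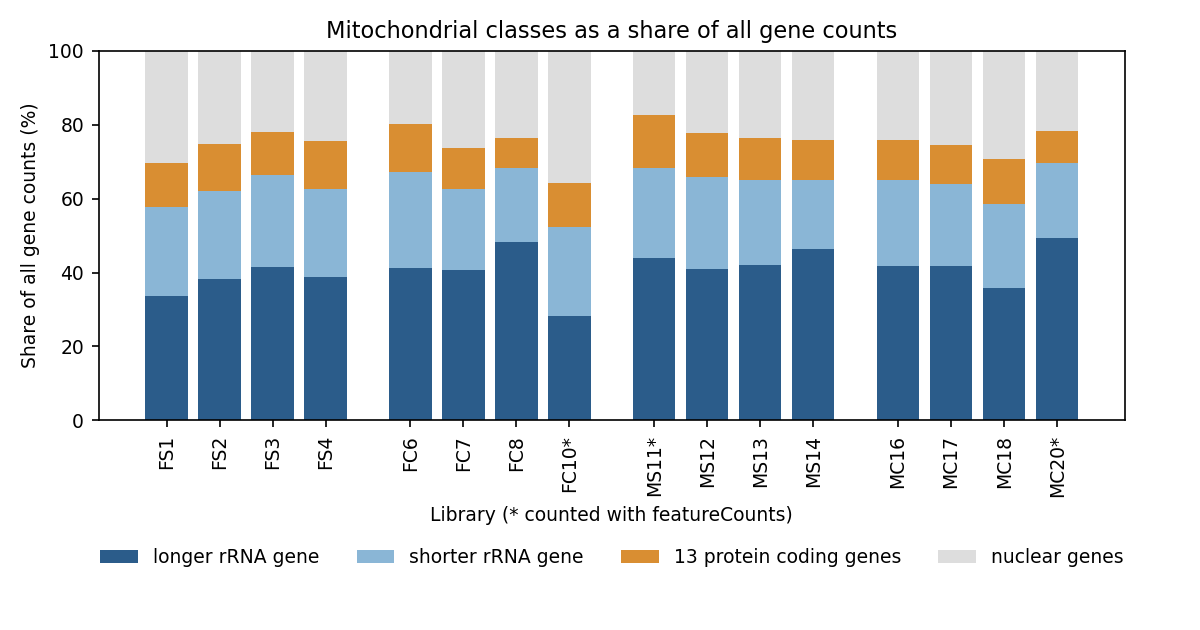
Share of all gene counts (%, stacked bars) taken by the longer rRNA gene, the shorter rRNA gene, the 13 protein coding genes and all other genes in each of the 16 libraries (FS and FC are stressed and control females, MS and MC stressed and control males). The 2 rRNA genes fill most of each bar; the tRNA class is too small to be drawn, and a star marks the 3 libraries counted with featureCounts.

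The 2 rRNA genes made up most of this signal. ENSRNOG00000043866 (MT 1094 to 2664, 1571 bases, plus strand), the longer one, held 28.3% to 49.4% of all counts in a library, and ENSRNOG00000030478 (MT 68 to 1025, 958 bases, plus strand) held 18.8% to 26.0%. Together they were 83.0%, 83.0%, 85.2% and 82.8% of mitochondrial counts in female stress 1 to 4, and 83.8%, 84.8%, 89.6% and 81.4% in the female controls. The stressed males had 82.6%, 84.5%, 84.9% and 85.6%, and the male controls 86.0%, 85.8%, 82.7% and 88.9%. The highest values, in female control 8 and male control 20, are both in controls, yet each control group also reached below the highest stressed library of its sex. Per base the rRNA genes stood 23.0 to 42.4 times above the mean of the protein coding genes, with a median of 29.1 over the 16 libraries.

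The 2 rRNAs sit in one ribosome, the longer in its large and the shorter in its small subunit, but their counts were not in a fixed ratio. Counts of the longer gene were 1.38, 1.6, 1.66 and 1.63 times those of the shorter in female stress 1 to 4, and 1.58, 1.85, 2.41 and 1.18 times in female control 6, 7, 8 and 10. They were 1.82, 1.65, 1.82 and 2.46 times in male stress 11 to 14, and 1.80, 1.87, 1.57 and 2.45 times in male control 16, 17, 18 and 20. Female control 8, male stress 14 and male control 20 were the high libraries, and female control 10 was the low one. Once gene length is taken into account the mean ratios came close to 1: the log2 ratio per base was -0.07 ± 0.12 in stressed females, 0.05 ± 0.43 in control females, 0.22 ± 0.25 in stressed males and 0.21 ± 0.27 in control males (SD, n = 4).

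The 13 protein coding genes took the rest, with 17.0%, 17.0%, 14.8% and 17.2% of mitochondrial counts in female stress 1 to 4 and 16.2%, 15.2%, 10.4% and 18.6% in the female controls. The stressed males had 17.4%, 15.5%, 15.1% and 14.4%, and the male controls 14.0%, 14.2%, 17.3% and 11.1%. Female control 8 and male control 20 were lowest here, as they were highest for rRNA. Of these genes 12 lie on the plus strand and 1, at MT 13543 to 14061, on the minus strand. In mammals the only protein encoded on that side is a subunit of complex I, the first complex of the respiratory chain.

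Levels of the protein coding genes spread over 2 orders of magnitude. Levels are given as counts per kilobase of gene and per 1000000 mitochondrial counts, so that genes of different length can be set side by side. The highest was ENSRNOG00000034234 at MT 5323 to 6867, with a median of 27141 and a range of 13909 to 33870 over the 16 libraries. Next came MT 14136 to 15278 with a median level of 20375, MT 2740 to 3694 with 19381, MT 3904 to 4942 with 17041 and MT 7919 to 8599 with 16638. A middle group held MT 9870 to 10166 at 12723, MT 8599 to 9382 at 12458, MT 11736 to 13565 at 11968 and MT 7006 to 7689 at 8697. The minus strand gene stood at 2157, MT 7758 to 7961 at 1416, MT 9451 to 9798 at 268 and ENSRNOG00000029707 at MT 10160 to 11537 at 152.

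Most steps in this order were kept in single libraries. MT 5323 lay above MT 14136 in 15 of 16 libraries, MT 14136 above MT 2740 in 15 and MT 2740 above MT 3904 in 15. MT 3904 lay above MT 7919 in only 10 of 16, so this pair is not separated. MT 7919 lay above MT 9870 in all 16. MT 9870 lay above MT 8599 in 9 of 16, so this pair is not separated either. MT 8599 lay above MT 11736 in 12 of 16. MT 11736 was above MT 7006 in all 16 libraries. Lower down, MT 13543 lay above MT 7758 in 13 of 16 and MT 9451 above MT 10160 in 13 of 16. Both of these steps held in every HTSeq library and were reversed in every featureCounts library. There MT 7758 stood at 3378 to 4875 against 2450 to 3281 for MT 13543, and MT 9451 rather than MT 10160 was the lowest gene.

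**Figure D2:**
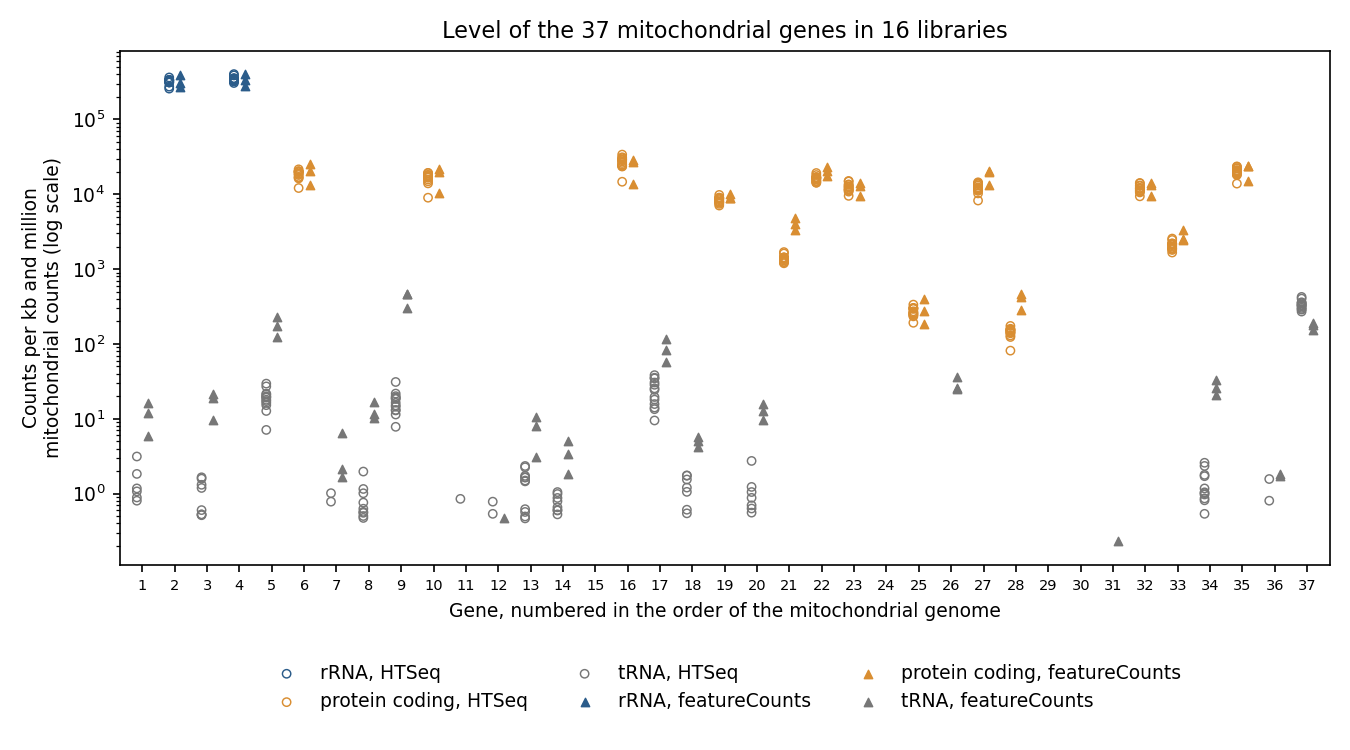
Level of each of the 37 genes (counts per kilobase and per 1000000 mitochondrial counts, log axis), in genome order, 1 point per library, with circles for HTSeq and triangles for featureCounts; values of 0 are not drawn. The 2 rRNA genes lie between 257968 and 403047, most protein coding genes between 7067 and 33870, and the triangles of many tRNA genes lie above the circles.

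Among the protein coding genes, neighbours differed most around MT 10160 in the HTSeq libraries. This gene had 1378 bases but only 2704 to 5919 counts in the HTSeq libraries and 20254 to 35598 in the featureCounts libraries. Its neighbour at MT 9870, with which it shares 7 bases, had 59026 to 119318 and 209189 to 358229 counts. Per kilobase the neighbour stood a median of 82.7 times higher (43.2 to 101), and the next coding gene downstream, at MT 11736, 80.8 times higher (28.4 to 115). By counting tool the first of these ratios had a median of 84.8 in HTSeq and 46.7 in featureCounts libraries, and the 2 ranges did not overlap. As background, mammalian mitochondrial genomes hold messenger RNAs that carry a pair of overlapping reading frames.

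The other genes far below their neighbours were MT 9451, MT 7758 and MT 13543. MT 9451 to 9798 stood below MT 8599 by a median of 45.6 times (35.4 to 53.0) and below MT 9870 by 46.7 times (39.5 to 72.5). In the featureCounts libraries alone this second ratio had a median of 70.9, above the 46.7 between MT 9870 and MT 10160. MT 7758 to 7961 stood below its overlapping neighbour MT 7919 by a median of 11.7 times in HTSeq and 5.12 times in featureCounts libraries. MT 13543 stood below the next coding gene, MT 14136, by a median of 9.75 times (5.91 to 10.8). The opposite strand gene that MT 13543 overlaps, MT 11736, was 5.59 times higher (3.76 to 6.57). Whether reads were assigned by strand is not given in the sources used here, and where the 2 genes overlap their reads cannot be told apart.

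A pair of libraries differed from the others within the protein coding class, as seen after the values were examined. In female control 8 and male control 20 the level of the gene at MT 5323 was 14697 and 13909 per kilobase and per 1000000 mitochondrial counts, against 23486 to 33870 in the other 14. The gene at MT 7006 to 7689 held 5.86% and 5.54% of protein coding counts there, against 3.41% to 3.87% elsewhere. MT 7919 held 9.77% and 10.8%, against 6.43% to 8.35% elsewhere. These libraries also had a high ratio of the rRNAs and the lowest protein coding shares. Male stress 14, whose rRNA ratio was the highest of the 16 at 2.46, did not share the rest: its protein coding share was 14.4% and its level at MT 5323 was 23756. One was counted with HTSeq and the other with featureCounts, and both are controls, of different sex. In female control 8 14.6% of entries were unaligned, within the 13.2% to 40.8% of the HTSeq libraries. Male stress 14, at 38.8%, and female control 7, at 40.8%, were high, and the other HTSeq libraries had 13.2% to 15.4%. Entries marked ambiguous were 1.79% in male stress 14, against 0.48% to 0.76% in the other HTSeq libraries.

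**Figure D3:**
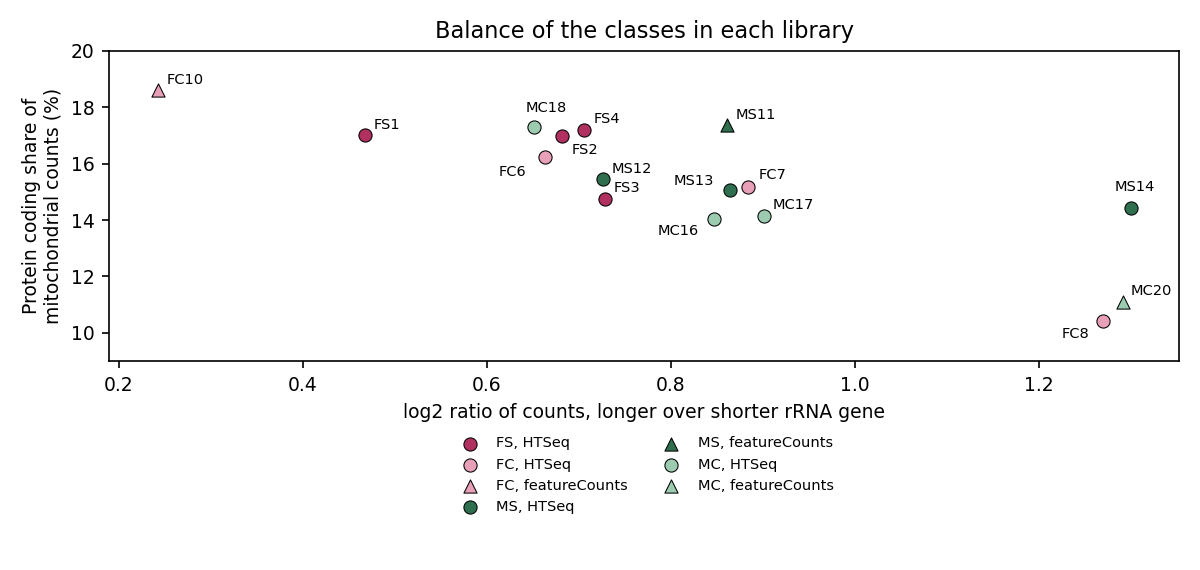
Protein coding share of mitochondrial counts (%) against the log2 ratio of counts of the longer to the shorter rRNA gene, 1 point per library, with colour for the group and triangles for featureCounts. Female control 8 (10.4%) and male control 20 (11.1%) lie low and to the right, male stress 14 lies as far to the right at 14.4%, and female control 10 (18.6%) lies high and to the left.

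The tRNA class was hardly counted, and its counts followed the counting tool. The 22 genes, of 60 to 75 bases, 14 on the plus and 8 on the minus strand, had 433 to 803 counts in all in an HTSeq library and 3022 to 4209 in a featureCounts library. As a share of mitochondrial counts this was 0.00245% to 0.00329% in the 13 HTSeq libraries, and 0.00777% in female control 10, 0.00691% in male stress 11 and 0.00576% in male control 20. The 2 sets of libraries did not overlap. Transfer RNAs are short, folded RNAs that bring amino acids to the ribosome.

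A single gene supplied most tRNA counts in the HTSeq libraries. ENSRNOG00000029145 (MT 15348 to 15415, 68 bases, minus strand) had 367 to 705 counts there and 530 to 644 in the featureCounts libraries. That was 72.9% to 89.4% of the class in HTSeq and 15.3% to 21.1% in featureCounts libraries. It was lower in every featureCounts library (10.6 to 13.1 per 1000000 mitochondrial counts) than in every HTSeq library (18.4 to 28.9). The other 21 genes went the opposite way, with 58 to 192 counts together in an HTSeq library, or 2.91 to 6.86 per 1000000 mitochondrial counts, and 2383 to 3565 counts, or 45.4 to 64.6 on the same scale, in a featureCounts library.

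By mean counts per kilobase over the 16 libraries the next genes were those at MT 3835 to 3903 and MT 2665 to 2739, and the featureCounts libraries carried this rank. The first had 13 to 60 counts in HTSeq and 1111 to 1925 in featureCounts libraries. The second had 13 to 62 and 483 to 792 counts. In the HTSeq libraries the gene at MT 6865 to 6933 (minus strand), added here after its values were seen, had more than either, with a median of 41 counts (11 to 62) against 31 at MT 3835 and 33 at MT 2665. It had 232 to 421 counts in the featureCounts libraries, and it shares 3 bases with another mitochondrial gene. The tRNA genes at MT 3835 and MT 2665 each lie directly before a protein coding gene, at MT 3904 and MT 2740. The gene at MT 9800 to 9867 had 0 counts in all 13 HTSeq libraries and 72 to 152 in the featureCounts libraries. Of the 22 genes, 13 had every featureCounts library above every HTSeq library per 1000000 mitochondrial counts, and 1, at MT 15348, had every one below. In the protein coding class this held for 2 of 13, those at MT 7758 and MT 10160.

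At the low end 4 tRNA genes, at MT 5256 to 5321, 9383 to 9450, 11538 to 11605 and 11606 to 11665, had 0 counts in all 16 libraries. A count of 0 allows up to 3 counts, or 0.0493 to 0.179 per 1000000 mitochondrial counts in a library, and this covers counting error only. Of all 22, 4 were counted in every library and 18 had a median under 10 counts in the HTSeq libraries. These 18 did not pass the filter on low counts, so the main test of single genes left them out. Tests without that filter are given below with the other tests of single genes.

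**Figure D4:**
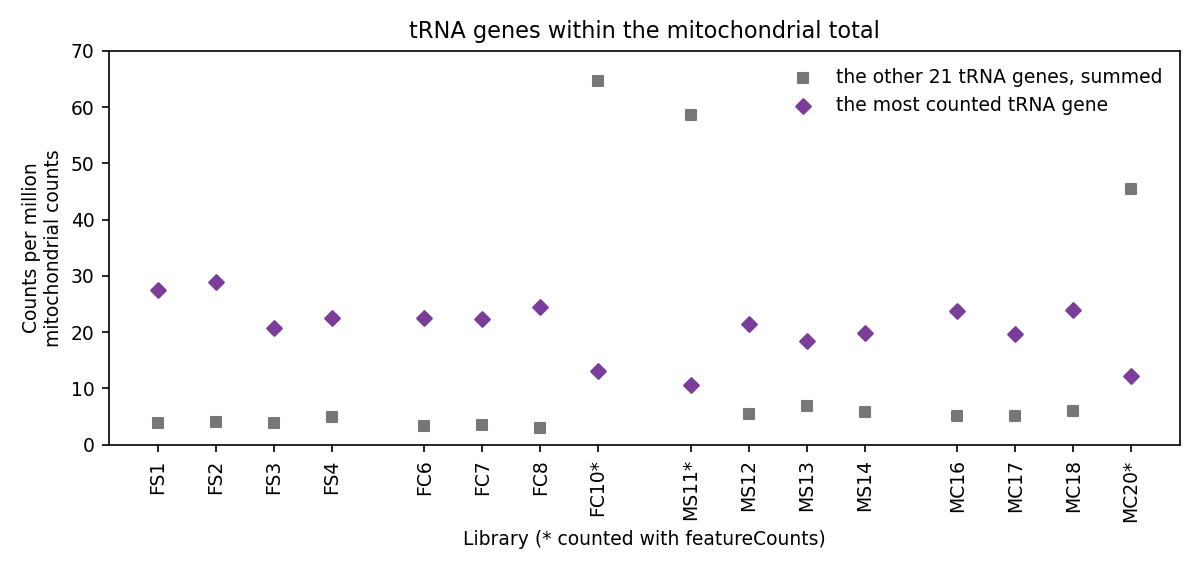
Counts per 1000000 mitochondrial counts of the most counted tRNA gene (MT 15348, diamonds) and of the other 21 tRNA genes summed (squares) in each library. In the 13 HTSeq libraries the diamonds (18.4 to 28.9) lie above the squares (2.91 to 6.86), and in the 3 starred featureCounts libraries the squares (45.4 to 64.6) lie above.

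The balance of the classes was then compared between groups with 5 measures per library, the mitochondrial share of all counts, the 3 class shares and the log2 rRNA ratio, each in 6 contrasts. By two-sided exact permutation tests 0 of these 30 tests gave a p under 0.05, and the smallest p adjusted over the 30 was 0.98. With 4 libraries against 4 such a test cannot go below 0.029. After adjustment over 30 tests a single p at that limit stays above 0.05. For 2 groups the lack of a small adjusted p therefore does not show that they were alike. The mitochondrial share was 74.4% ± 3.5 in stressed and 73.6% ± 6.8 in control females (SD, n = 4; exact permutation p = 0.857). In males it was 78.2% ± 3.0 and 74.9% ± 3.1 (SD, n = 4; exact permutation p = 0.2). Without the featureCounts libraries the female difference, stressed minus control, went from 0.81 to -2.33 points and the male difference from 3.33 to 3.04 points.

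Within the mitochondrial total the stressed groups had less rRNA on average in both sexes, by amounts inside the spread between libraries. The difference of the rRNA share, stressed minus control, was -1.38 points in females (exact permutation p = 0.543) and -1.42 points in males (exact permutation p = 0.314). The protein coding share differed by 1.38 and 1.42 points with the same p-values, since both classes fill nearly the whole total. Without the 3 featureCounts libraries the male difference in rRNA share was 0.18 points and the female one -2.55 points. The smallest p of the family was for the log2 rRNA ratio of stressed females against stressed males, 0.65 ± 0.12 against 0.94 ± 0.25 (SD, n = 4; exact permutation p = 0.0571).

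Single genes were tested with edgeR's quasi-likelihood test on all genes together. After the filter on low counts 14241 genes were tested, among them both rRNA genes, all 13 protein coding genes and 4 of the 22 tRNA genes. These 4, at MT 2665, 3835, 6865 and 15348, are the tRNA genes counted in every library. By edgeR with Benjamini-Hochberg adjustment 0 of the 19 members were called in any contrast at an adjusted p under 0.05. DESeq2 and limma voom on the same genes also called 0. Among all genes tested 0.0632% were called for stress in females, 0.119% for stress in males, 0.337% for stress averaged over the sexes and 0% for the female minus male difference of the stress effect. For females against males 0.112% were called in controls and 0.0913% in stressed rats. Without the filter on low counts edgeR tested 33 members and called 3 for stress in females, where 0.416% of all 25215 genes were called, and 3 for stress in males, against 0.349% of all genes. It called 2 averaged over the sexes (0.821% of all genes) and 5 for the difference of the stress effect (0.143%). For sex it called 1 in controls (0.214%) and 10 in stressed rats (0.416%). Not all genes called here had been left out by the filter. The tRNA genes at MT 2665, 3835 and 6865, and the coding genes at MT 7758, 9870, 10160 and 13543, passed it. The rest were the tRNA genes at MT 1026, 9800 and 14062. At MT 3835 the log2 fold change of stress in females was -2.52 (edgeR without the filter, adjusted p = 2.76e-29). At MT 10160 in males it was 0.59 (edgeR without the filter, adjusted p = 0.0021). When the featureCounts libraries were left out too, 0 of 31 members were called.

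In males the 15 rRNA and protein coding genes all had higher fitted levels under stress, though none passed the test. Their log2 fold changes ran from 0.22 to 0.59 with a median of 0.43, against a median of 0.00 over all genes tested. Of the 15, 6 were at an unadjusted p under 0.05 (edgeR), as were 1097 of all 14241 genes tested. The 15 were read from the same libraries and lie on one genome, so the 6 are not independent results. The smallest adjusted p was 0.480 (edgeR). The rRNA genes were at the low end, with 0.26 (SE 0.23) at MT 68 and 0.22 (SE 0.27) at MT 1094, and the 13 protein coding genes had a median of 0.44. Male stress 11 bears heavily on these values: without it the median of the 15 was 0.17, with 13 of 15 higher and 0 at an unadjusted p under 0.05. Without all 3 featureCounts libraries it was 0.24 with 15 higher, and with the counting tool as a covariate 0.42 with 15 higher. Over all fits with 1 library left out, this median ran from 0.17 to 0.55. With each library scaled to its mitochondrial total, so that a gene is read against the others of the same genome, the median was 0.11 with 12 of 15 higher, while that of all genes tested moved to -0.27.

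Of these genes the one at MT 3904 to 4942 had the smallest p in males. Its level, in counts per 1000000 scaled by edgeR's TMM factors (CPM), was 23364, 15169, 14050 and 13785 in male stress 11 to 14, and 11801, 11633, 10983 and 9864 in male control 16, 17, 18 and 20. Every stressed male library lay above every control, with male stress 11 well above the others (log2 fold change 0.58, SE 0.22, edgeR adjusted p = 0.480). In females the same gene had 9309, 14545, 12418 and 15268 CPM in stress 1 to 4 and 17066, 12969, 7181 and 10440 CPM in the controls, and the groups overlapped fully (log2 fold change 0.11, SE 0.22, edgeR adjusted p = 0.962).

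MT 14136 to 15278, the last protein coding gene in genome order, had 31201, 19059, 20089 and 17588 CPM in the stressed males and 15760, 14951, 14821 and 15365 CPM in the male controls. The controls lay close together and below all stressed libraries (log2 fold change 0.53, SE 0.20, edgeR adjusted p = 0.511). At MT 9451 to 9798, one of the lowest coding genes, the stressed males had 112, 89.7, 72.6 and 67.8 CPM and the controls 67.7, 60.7, 67.7 and 58.4 CPM, so the lowest stressed library lay just above the highest control (log2 fold change 0.43, SE 0.16, edgeR adjusted p = 0.512). These 3 were the members with all stressed males above all control males, 3 of 19 tested, where 5.27% of all genes tested had groups that did not overlap in either direction. In females 0 of 19 had, against 3.31% of all genes.

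The longer rRNA gene showed how wide the spread within groups was. It had 613529, 450455, 435956 and 462714 CPM in the stressed males and 421477, 397498, 293067 and 572142 CPM in the male controls. Male control 20 exceeded 3 of the 4 stressed libraries. In females it had 258461, 372075, 454439 and 391589 CPM under stress and 501992, 383307, 486387 and 202160 CPM in controls, where the lowest and the highest library were both controls (log2 fold change -0.09, SE 0.27, edgeR adjusted p = 0.983).

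In females the 15 genes had log2 fold changes from -0.42 to 0.25 with a median of 0.06, 10 higher and 5 lower, and 0 at an unadjusted p under 0.05. The most counted protein coding gene, at MT 5323, had 0.25 (SE 0.24), from 27808 ± 13375 CPM in controls to 33169 ± 3968 CPM in stressed females (SD, n = 4; edgeR adjusted p = 0.897). The lowest values were -0.42 (SE 0.56) at MT 7758 and -0.32 (SE 0.54) at MT 10160. Within the mitochondrial total these 2 coding genes were higher in every featureCounts library than in every HTSeq library. Of the female libraries, 1 control and no stressed one was a featureCounts library, so the tool cannot be told apart from other differences of that library. With the counting tool as a covariate the 15 genes ran from -0.08 to 0.24 in females, with a median of 0.12 and 13 higher. Without the 3 featureCounts libraries the log2 fold change at MT 10160 was 0.02. Female control 6 had the highest mitochondrial share among the female controls, and without it the median of the 15 genes was 0.24, with 13 higher. In that setting 3 members were at an unadjusted p under 0.05, and the smallest adjusted p of a member was 0.350 (edgeR). How many of all genes were under 0.05 there was not counted. Without female stress 3 the median of the 15 genes was -0.01 and without female stress 4 it was -0.03, each with 7 higher.

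**Figure D5:**
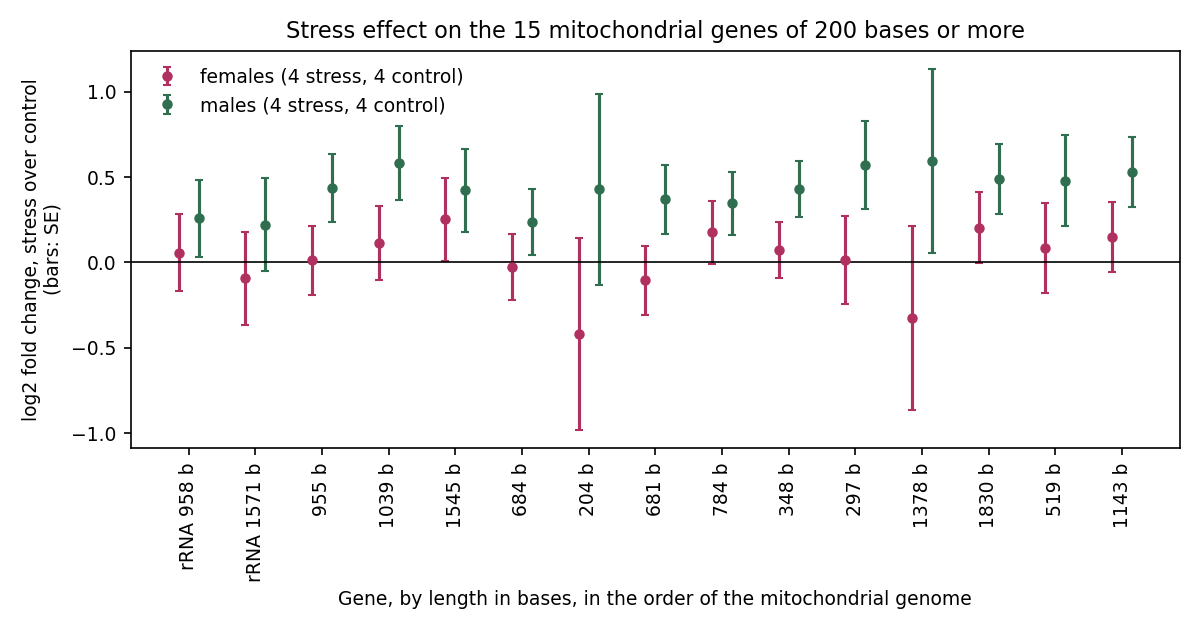
Log2 fold change of stress over control from edgeR (points, bars are SE) for the 15 mitochondrial genes of 200 bases or more, in genome order and named by length, in females and males with 4 stressed and 4 control libraries each. All 15 male points lie above 0 (0.22 to 0.59) and the female points lie around 0 (-0.42 to 0.25).

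Averaged over the sexes, all 15 genes had positive log2 fold changes, with a median of 0.25 and a smallest adjusted p of 0.412 (edgeR). Of the 15, 4 were at an unadjusted p under 0.05 (edgeR), as were 1448 of all 14241 genes tested. With DESeq2 size factors 14 of the 15 were positive, and with the mitochondrial total as library size 10 were. Without male stress 11 the median was 0.10, and without female control 6 it was 0.35. The difference of the stress effect, female minus male, was negative for all 15, with a median of -0.38, 0 at an unadjusted p under 0.05 and a smallest adjusted p of 1.00 (edgeR). Without male stress 11 it was -0.07, without female control 6 it was -0.17, and with the mitochondrial total as library size it was -0.09 with 5 of 15 positive.

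Females and males were close in the controls, with a median log2 difference over the 15 genes, female minus male, of 0.04, 11 higher and 4 lower. This median depended on single libraries: it was -0.14 with 0 higher without female control 6, 0.12 with 12 higher without female control 10, and 0.18 with 15 higher without the 3 featureCounts libraries. In stressed rats all 15 were lower in females, with a median of -0.31 and a smallest adjusted p of 0.870 (edgeR). Of the 15, 2 were at an unadjusted p under 0.05 (edgeR), as were 809 of all 14241 genes tested. Without male stress 11 the median was -0.09, with 4 higher, and with the mitochondrial total as library size it was 0.01 with 8 higher. Within the mitochondrial total the gene at MT 5323, chosen after its values were seen, held 5.23%, 4.50%, 4.40% and 4.48% in female stress 1 to 4 and 4.15%, 4.23%, 3.63% and 3.67% in male stress 11 to 14, so these groups did not overlap. Its control groups did, at 2.27% to 4.82% in females and 2.15% to 4.68% in males. Its fitted log2 difference between stressed females and males was -0.09 (SE 0.24, edgeR adjusted p = 0.990). For how many of all genes the stressed females and males did not overlap was not counted, so this separation has no rate to be set against.

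The errors of the 4 tRNA genes tested differed widely. At MT 15348 the log2 fold change of stress was 0.19 (SE 0.29) in females and 0.08 (SE 0.29) in males. At MT 3835 it was -2.49 (SE 1.72) in females and 0.87 (SE 1.43) in males, and at MT 2665 -1.70 (SE 1.17) and 0.79 (SE 1.04). At MT 6865 it was -0.37 (SE 0.68) and -0.37 (SE 0.62). The levels at MT 3835 were 14.8 CPM in female control 10, 36.4 CPM in male stress 11 and 19.2 CPM in male control 20, the featureCounts libraries, and 0.4 to 1.7 CPM in the other 13. Among the HTSeq libraries alone it was 0.4 to 1.0 CPM in stressed and 0.4 to 1.0 CPM in control females, and 0.9 to 1.7 CPM in stressed and 0.7 to 1.0 CPM in control males, and the groups overlapped in both sexes.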

How the data were processed

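The authors deposited raw counts of 32883 Ensembl genes for each of 16 libraries. Per the labels' protocols, total RNA was converted to libraries with NuGen's Ovation RNA-Seq kit (v2), 16 libraries shared a lane, and reads were 75 bp, paired. The submitters' processing notes name STAR 2.5.2a, HTSeq, bedtools, limma and DESeq, and the build Rnor_6.0. Per the file headers, 3 libraries were counted with featureCounts 1.6.1 and Ensembl release 92, and the HTSeq mode and strand setting are not given in the sources used here. HTSeq's closing lines, for reads without a gene, made up 44.8% to 64.7% of entries and were left out throughout.

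Positions came from the featureCounts files. Shares were taken over all gene counts and over mitochondrial counts, with Wilson intervals at 95%, which cover counting error only. Genes were tested with edgeR 4.0.16 in R 4.3.3 (TMM, filterByExpr, robust quasi-likelihood fit of 4 group means to all 16 libraries), tested on simulated data, with Benjamini-Hochberg adjustment over the 14241 genes kept. The 5 measures per library were tested by exact permutation, two-sided (scipy 1.17.1), adjusted over the 30 tests. Alternatives were DESeq2 1.42.0, limma 3.58.1 (voom), other scalings, no filter, the counting tool left out or as a covariate, and leaving out each library.

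The members, lists and tests were chosen with earlier results of these data known. All rRNA and protein coding genes are given with values, and of the tRNA genes the 3 highest and the lowest by counts per kilobase (4 are level at 0), any called gene, and any whose stressed and control groups do not overlap in both sexes. The name table lists 47357 genes, of which 0 carry an Ensembl identifier and 0 matched, so the gene lists and cell type markers could not be applied, and the tissue was not checked against its markers. Mitochondrial sequences were not used here.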

Additional observations from a re-analysis of the deposited data

Results flagged for a closer look

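In 84 groups of 4 libraries, from 5 library measures and 16 genes, the highest or lowest library was screened for a wide gap to the others. Of these, 12 had a library that stood apart. Chance alone flags about 1 in 20 groups when they are independent, which shares of a common total are not.

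Female stress 3 stood apart in 4 of the 12. Its rRNA share of mitochondrial counts was 85.23% against 82.8% to 83.01% in the other stressed females, and its protein coding share 14.76% against 16.99% to 17.2%. The gene at MT 2740 to 3694 held 1.629% of its mitochondrial counts against 1.888% to 1.934%, and the gene at MT 9451 to 9798 held 0.00814% against 0.0103% to 0.01056%. In female stress 1 the gene at MT 5323 to 6867 held 5.233% against 4.404% to 4.502%.

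The other 7 were featureCounts libraries. The tRNA share of mitochondrial counts was 0.007767% in female control 10, 0.006915% in male stress 11 and 0.00576% in male control 20, against 0.002471% to 0.002983% in the HTSeq libraries of those groups. MT 7758 to 7961 held 0.09944% in female control 10 against 0.02441% to 0.02918%, and 0.0814% in male stress 11 against 0.02758% to 0.02858%. Male stress 11 also stood apart for MT 10160 to 11537, at 0.05848% against 0.01916% to 0.02086%, and for MT 13543 to 14061, at 0.1703% against 0.1083% to 0.1147%.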

How the results depend on the processing

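The count of 0 members called held in all 6 contrasts under DESeq2 size factors, nuclear or mitochondrial library sizes, the DESeq2 test and limma voom. It also held with the counting tool as a covariate, without the featureCounts libraries, and with each of the 16 libraries left out. Without the filter on low counts edgeR tested 33 members and called 3 for stress in females, 3 in males, 2 on average, 5 for the difference between sexes, 1 for sex in controls and 10 for sex in stressed rats, 10 distinct genes in all, where 0.143% to 0.821% of all 25215 genes were called. Without the filter and without the featureCounts libraries, an alternative chosen after seeing the data, 31 were tested and 0 called.

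Library measures changed sign without the featureCounts libraries as follows, stressed minus control or female minus male. The mitochondrial share became -2.33 points for stress in females and 3.06 for sex in controls. The rRNA share became 0.18 points for stress in males, 1.24 for sex in controls and -2.74 for the difference between sexes, and the protein coding share -0.18, -1.24 and 2.74 points. The tRNA share became 0.000271 points in females, -0.000186 in males, -0.000147 for sex in controls, 0.000311 for sex in stressed rats, 4.27e-05 on average and 0.000457 for the difference. The log2 rRNA ratio became 0.139 for sex in controls. With rRNA out of the denominator the protein coding share became 0.00385 points for the difference, and the tRNA share -0.00382 points in males and -0.00153 for sex in controls. The cause of these changes was not tested.

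With 1 library left out, the signs also turned for the mitochondrial share in females (-2.33 to 3.02) and for sex in controls (-3.44 to 1.92). The rRNA share ran from -2.55 to 0.182 in females, -2.51 to 0.222 for sex in controls and -1.13 to 1.61 for the difference, and the protein coding share from -0.180 to 2.55, -0.221 to 2.51 and -1.60 to 1.13. The tRNA share ran from -0.00146 to 0.000271 in females, -0.000931 to 0.000894 in males, -0.000971 to 0.00021 on average, -0.00191 to 0.000122 for the difference, -0.000892 to 0.00114 for sex in controls and -0.00115 to 0.000311 for sex in stressed rats. The log2 rRNA ratio ran from -0.293 to 0.049 in females, -0.105 to 0.138 in males, -0.139 to 0.0321 on average, -0.309 to 0.0338 for the difference and -0.326 to 0.0162 for sex in controls. None of these measures had passed its test.

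Log2 fold changes of single genes, none called, changed sign in 16 cases under other settings and in 26 with a library left out, and 2 were called without the filter. No paired analysis was possible because the title numbers are not shared between groups. The 18 tRNA genes with a median under 10 counts in the HTSeq libraries were left out by the filter.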
